A study of Mus musculus with 7 samples.

Results

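The MS4A membrane protein family was described through 7 of its genes, Ms4a4a, Ms4a4b, Ms4a4c, Ms4a6b, Ms4a6c, Ms4a6d and Ms4a7. They were found by symbol among the 24537 genes of the deposited expression table, and all 7 were among the 13028 genes that were tested. The measurements were RNA sequencing of microglia, which are the brain's own macrophages, from C57BL/6 mice at day 35. The sort kept cells positive for the chemokine receptor CX3CR1 with an intermediate level of the leukocyte marker CD45. All mice carried the 005 glioma, a mouse model of glioblastoma grown in the brain. The groups were control IgG (2 libraries), an antibody to the T cell checkpoint receptor CTLA4 (2 libraries), and that antibody together with CD4 depletion (3 libraries, called the CD4 depletion group below). The sources used here give no age or sex, and the labels leave unsaid whether each library is a separate animal. All p-values below are therefore set against library-to-library spread alone, which may be technical.

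MS4A proteins are small proteins that cross the membrane several times, and most of their genes sit side by side in a cluster. The best known member is CD20, the product of Ms4a1 on B cells, and another is the beta chain of the high-affinity IgE receptor of mast cells. The genes described here belong to the branch found mainly in monocytes and macrophages, with Ms4a4b also known from T cells. In the mouse brain, Ms4a7 is widely used as a marker of border-associated and infiltrating macrophages, which resting microglia largely lack.

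The identity of 1 group is in doubt. Its column names say anti-CTLA4 with sheet numbers 29 and 30, whereas the sample descriptions give 10 and 11. The command in the table's header gives 29 and 30 to interferon-gamma receptor knockout libraries. These columns are called the libraries labelled anti-CTLA4, and every direction against them rests on their names. Homeostatic microglia markers were abundant in all 7 libraries, and Tmem119, a membrane protein typical of microglia, ranged from 243 to 1001 FPKM (fragments scaled to transcript length and library size). T cell markers were low, with 4 of 15 tested: the CD3 chain Cd3e was at 0.307 to 1.07 FPKM and Cd4 at 0.115 to 0.823 FPKM, while Il7r and Tcf7 reached 9.50 and 5.18 FPKM. CD4 depletion replicate 1 stood apart: the 14 monocyte and monocyte-derived macrophage markers had a mean log2(FPKM + 1) of 6.42 there and of 2.23 to 3.23 elsewhere. Each member is therefore given with and without that library. In bulk RNA, fewer cells of a type and less RNA per cell cannot be told apart. The depth implied by the low values was 84100000 to 108000000 reads per library. The lowest member values, Ms4a4a in IgG replicate 1 and Ms4a4b in the same library, rested on 18 and 32 implied reads.

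All 7 genes lie on chromosome 19 of mm10. Ms4a7 runs from 11321039 to 11336146 on the minus strand and Ms4a6d from 11586606 to 11604804, also on the minus strand. The other members lie between them on the plus strand: Ms4a4a from 11375488 to 11392915, Ms4a4c from 11407661 to 11427246, Ms4a4b from 11443558 to 11463548, Ms4a6c from 11469368 to 11472736 and Ms4a6b from 11518559 to 11530403. Each value covers the exons of 1 transcript model per gene. For Ms4a6c that model is a short form of 691 nucleotides, so its level relative to the other genes depends on that choice.

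The upstream sequences of neighbouring members show how alike some of these genes are. RefSeq promoter windows (GRCm38.p6, the assembly of mm10) were held for 6 of the 7 members, Ms4a6d being the exception. Of all 15 pairs, 2 pairs shared stretches of 12 bases or more in the 250 bases before the start site, and those 2 pairs are shown for that reason. Both are neighbours in the same sub-branch. Ms4a4a and Ms4a4c are such neighbours too, and their longest shared run was 8 bases. The windows are Ms4a4b at chr19:11443308-11443557, Ms4a4c at chr19:11407411-11407660, Ms4a6b at chr19:11518309-11518558 and Ms4a6c at chr19:11469118-11469367, all on the plus strand and written 5′ to 3′. Capitals mark stretches of at least 12 bases that are also present in the partner's window. The last capitals of Ms4a4b are 2 such stretches, of 20 and 12 bases, that adjoin there and are separated by a base in Ms4a4c.
Ms4a4b: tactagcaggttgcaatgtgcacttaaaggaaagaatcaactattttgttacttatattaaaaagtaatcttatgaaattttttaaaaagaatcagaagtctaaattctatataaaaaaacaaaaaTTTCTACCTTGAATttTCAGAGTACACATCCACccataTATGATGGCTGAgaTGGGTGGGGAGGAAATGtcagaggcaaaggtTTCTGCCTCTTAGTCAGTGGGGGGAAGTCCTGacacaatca
Ms4a4c: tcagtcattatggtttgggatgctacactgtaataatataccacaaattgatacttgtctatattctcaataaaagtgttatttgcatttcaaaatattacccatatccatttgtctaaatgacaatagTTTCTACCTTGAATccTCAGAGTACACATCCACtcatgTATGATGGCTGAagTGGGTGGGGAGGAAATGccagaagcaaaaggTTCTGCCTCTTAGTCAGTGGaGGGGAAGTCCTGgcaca
Ms4a6b: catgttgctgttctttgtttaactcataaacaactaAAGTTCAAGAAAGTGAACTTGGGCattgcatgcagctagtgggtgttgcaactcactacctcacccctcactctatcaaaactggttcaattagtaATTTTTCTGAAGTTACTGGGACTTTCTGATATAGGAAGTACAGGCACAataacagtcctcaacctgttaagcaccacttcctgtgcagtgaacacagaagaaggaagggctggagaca
Ms4a6c: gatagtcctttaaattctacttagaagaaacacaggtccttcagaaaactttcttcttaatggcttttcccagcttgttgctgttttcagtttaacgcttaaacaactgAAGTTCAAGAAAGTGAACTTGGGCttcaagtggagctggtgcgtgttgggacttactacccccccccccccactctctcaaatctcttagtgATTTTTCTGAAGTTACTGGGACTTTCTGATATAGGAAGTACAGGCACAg

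The longest run shared by Ms4a6b and Ms4a6c was 48 bases, and the longest shared by Ms4a4b and Ms4a4c was 20 bases. No other pair shared a run of more than 9 bases. The 300-base windows from 250 bases before to 50 bases after the start site were also searched on both strands for 3 motifs. The interferon-stimulated response element core (GAAA, then any 2 bases, then GAAA) was in 3.44% of 32851 promoters, the STAT site core TTCNNNGAA in 8.3% and the PU.1 site core GAGGAAGT in 3.2%. Each motif was in 0 of the 6 member windows, which says only that these letters are not in this stretch. The transcripts are alike in places too: of all 50-base words in the Ms4a6b transcript, 8.91% also occurred in transcripts of other genes, mostly Ms4a6c, and for Ms4a4c the share was 8.48%, mostly with Ms4a4b. Shares were 4.19% for Ms4a4b, 4.92% for Ms4a6c, 2.92% for Ms4a6d and 0% for Ms4a4a and Ms4a7. Reads from those stretches may be split between copies, and the values of the 5 genes with shared words are uncertain for that reason. The shares do not bound this for a low gene beside an abundant copy. In CD4 depletion replicate 1, Ms4a4b had 342 implied reads and Ms4a4c 6541. The Ms4a4b share was also taken over a transcript of 4750 nucleotides, while its deposited value covers 1249.

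Ms4a6d was the most abundant member in every library, and Ms4a4b was last in 6 of 7. FPKM is a level per transcript length, so levels can be set side by side between genes. Ms4a6d made up 34.0% to 46.9% of the summed member FPKM, Ms4a6b 12% to 31.6% and Ms4a6c 13.4% to 23.4%. Ms4a6c ranked 2 or 3 and Ms4a6b 2 to 4, depending on the library. Ms4a4a moved the most, from rank 7 in IgG replicate 1, at 0.495% of the sum, to rank 3 in CD4 depletion replicate 1, at 18.3%. The summed member level was 43.6 and 79.9 FPKM in IgG, 175 and 114 FPKM in the libraries labelled anti-CTLA4, and 493, 57.9 and 94.6 FPKM in CD4 depletion replicates 1, 2 and 3.

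**Figure D1:**
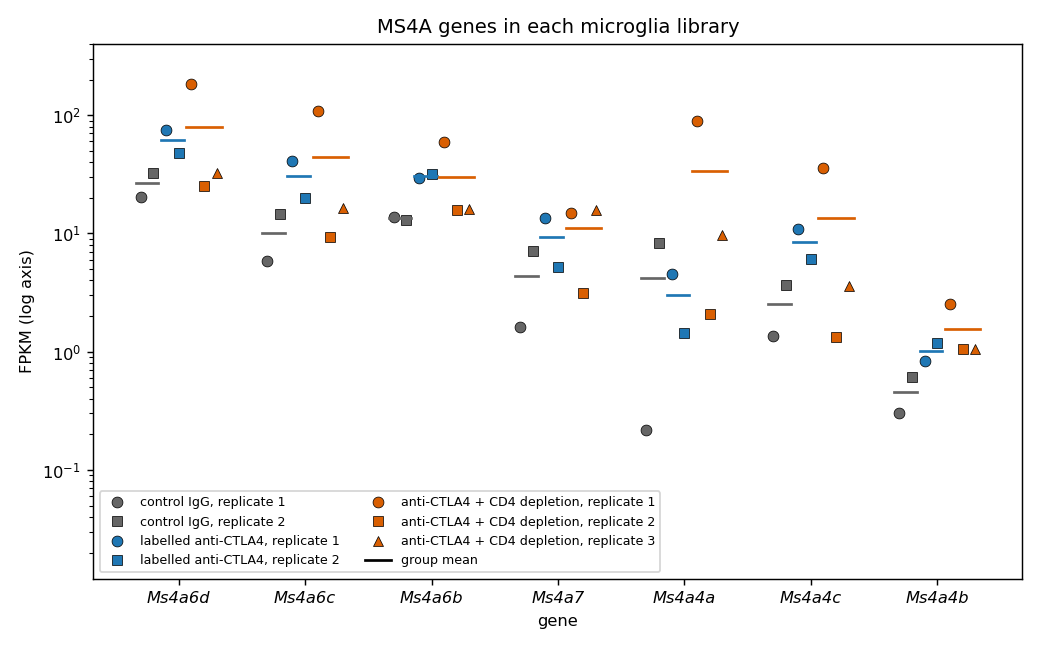
FPKM of each MS4A gene (log axis) in the 7 libraries, by colour for the group and by symbol for the replicate, with short lines at the group means. CD4 depletion replicate 1 is the highest point for 6 of the 7 genes; for Ms4a7 it is 14.8 FPKM against 15.6 in replicate 3.

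The Ms4a6 sub-branch was the most abundant. Ms4a6d, which is found mainly in macrophages, stood at 20.5 and 32.7 FPKM in IgG, at 75.3 and 48.0 FPKM in the libraries labelled anti-CTLA4, and at 183, 25.2 and 32.2 FPKM in CD4 depletion replicates 1 to 3. Both labelled anti-CTLA4 libraries were above both IgG libraries, while CD4 depletion replicates 2 and 3 lay within the IgG range and replicate 1 above all others. The group means were 26.6 ± 8.62 FPKM (SD, n = 2) in IgG, 61.7 ± 19.3 FPKM (SD, n = 2) in the libraries labelled anti-CTLA4 and 80.1 ± 89.1 FPKM (SD, n = 3) in CD4 depletion. In the last group the SD exceeded the mean.

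Ms4a6c, a gene common in inflammatory monocytes, stood at 5.84 and 14.5 FPKM in IgG, at 41.0 and 19.9 FPKM in the libraries labelled anti-CTLA4, and at 108, 9.29 and 16.4 FPKM in CD4 depletion. It had the same layout as Ms4a6d, with CD4 depletion replicate 3 slightly above the higher IgG library. Its means were 10.2 ± 6.12 FPKM (SD, n = 2), 30.5 ± 14.9 FPKM (SD, n = 2) and 44.6 ± 55.1 FPKM (SD, n = 3). Ms4a6b, the close relative of Ms4a6c, had the pairs of replicates nearest to each other within IgG (0.943-fold) and within the libraries labelled anti-CTLA4 (0.91-fold).

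Ms4a6b stood at 13.8 and 13.01 FPKM in IgG, at 29.2 and 32.1 FPKM in the libraries labelled anti-CTLA4, and at 58.9, 15.8 and 16.1 FPKM in CD4 depletion. The IgG and labelled anti-CTLA4 pairs did not overlap, and CD4 depletion replicates 2 and 3 lay just above IgG. The means were 13.4 ± 0.558 FPKM (SD, n = 2) in IgG, 30.7 ± 2.04 FPKM (SD, n = 2) in the libraries labelled anti-CTLA4 and 30.2 ± 24.8 FPKM (SD, n = 3) in CD4 depletion.

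In the Ms4a4 sub-branch, Ms4a4a, a macrophage protein that works with the beta-glucan receptor Dectin-1, had the least stable values. It stood at 0.216 and 8.22 FPKM in IgG, at 4.56 and 1.44 FPKM in the libraries labelled anti-CTLA4, and at 90.0, 2.08 and 9.62 FPKM in CD4 depletion. The groups overlapped in every comparison. The IgG libraries alone differed 38.1-fold, and CD4 depletion replicate 1 was 9.35-fold above the next highest library. Group means were 4.22 ± 5.66 FPKM (SD, n = 2) in IgG, 3.00 ± 2.21 FPKM (SD, n = 2) in the libraries labelled anti-CTLA4 and 33.9 ± 48.7 FPKM (SD, n = 3) in CD4 depletion.

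Ms4a4c, a gene of monocytes, stood at 1.36 and 3.70 FPKM in IgG, at 10.955 and 6.06 FPKM in the libraries labelled anti-CTLA4, and at 35.5, 1.32 and 3.59 FPKM in CD4 depletion. As for Ms4a6d, the labelled anti-CTLA4 pair lay above the IgG pair, and CD4 depletion replicates 2 and 3 lay at the IgG level. The means were 2.53 ± 1.65 FPKM (SD, n = 2), 8.51 ± 3.46 FPKM (SD, n = 2) and 13.5 ± 19.1 FPKM (SD, n = 3). Ms4a4b, which restrains proliferation in T cells, was low everywhere. It stood at 0.303 and 0.609 FPKM in IgG, at 0.831 and 1.19 FPKM in the libraries labelled anti-CTLA4, and at 2.55, 1.05 and 1.05 FPKM in CD4 depletion. Both other groups lay above IgG for this gene, with means of 0.456 ± 0.216 FPKM (SD, n = 2) in IgG, 1.01 ± 0.254 FPKM (SD, n = 2) in the libraries labelled anti-CTLA4 and 1.55 ± 0.863 FPKM (SD, n = 3) in CD4 depletion. The summed T cell list was 8.96 to 17.3 FPKM over the 7 libraries and 14.7 FPKM in CD4 depletion replicate 1, where Ms4a4b was highest.

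Ms4a7, the macrophage marker, stood at 1.62 and 7.17 FPKM in IgG, at 13.4 and 5.16 FPKM in the libraries labelled anti-CTLA4, and at 14.8, 3.16 and 15.6 FPKM in CD4 depletion. The groups overlapped in every comparison, and Ms4a7 was the 1 member for which CD4 depletion replicate 1 was not the highest library. Its means were 4.39 ± 3.92 FPKM (SD, n = 2), 9.29 ± 5.84 FPKM (SD, n = 2) and 11.2 ± 6.97 FPKM (SD, n = 3). By group mean, IgG was lowest for 6 members and CD4 depletion highest for 6. The exceptions were Ms4a4a, lowest in the libraries labelled anti-CTLA4, and Ms4a6b, whose means in both treated groups differed by less than their spread. Without CD4 depletion replicate 1, that group was highest for 3 members (Ms4a4a, Ms4a4b and Ms4a7), the labelled anti-CTLA4 group for the other 4, and Ms4a4c was lowest in CD4 depletion, at 2.46 against 2.53 FPKM in IgG. With all 7 libraries, the labelled anti-CTLA4 and CD4 depletion groups overlapped for all 7 members, while 60.5% of tested genes did not overlap. Without CD4 depletion replicate 1 they did not overlap for 4 members and for 75.1% of tested genes.

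The first comparison set the libraries labelled anti-CTLA4 against IgG and asked how the family stood under the checkpoint antibody alone. Of the 7 members, 0 passed limma's test at an adjusted p of 0.05, while 38% of all tested genes did (1210 higher and 3747 lower). The log2 fold changes of (FPKM + 1) were above 0 for all 7 members. They were 1.53 (SE 1.02) for Ms4a6c, 1.46 (SE 1.14) for Ms4a4c, 1.19 (SE 0.84) for Ms4a6d, 1.13 (SE 0.57) for Ms4a6b, 1.03 (SE 0.81) for Ms4a7, 0.47 (SE 0.32) for Ms4a4b and 0.14 (SE 1.54) for Ms4a4a. The limma adjusted p ranged from 0.146 for Ms4a6b to 0.949 for Ms4a4a, and 0 members had an unadjusted p under 0.05. The members' median was 1.14 against -0.31 over all tested genes. Scaling the libraries by median of ratios moved the latter to -0.01 and the members' median to 1.49, and scaling to the homeostatic microglia markers moved them to -0.99 and 0.27, with Ms4a4a at -0.44. Groups did not overlap, with the labelled anti-CTLA4 libraries higher, for 5 members (all but Ms4a4a and Ms4a7), and this was so in either direction for 76.9% of tested genes. Among these 5, Ms4a4b reached 1 FPKM only outside IgG and was tested only through those libraries.

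All groups share 1 estimate of the spread. Without CD4 depletion replicate 1 the fold changes of this comparison were the same by construction, but the standard errors were smaller for all 7 members. Ms4a6b rose by 1.13 (SE 0.14, limma adjusted p = 0.00244), Ms4a6d by 1.19 (SE 0.29, limma adjusted p = 0.0154), Ms4a4c by 1.46 (SE 0.45, limma adjusted p = 0.0344) and Ms4a6c by 1.53 (SE 0.48, limma adjusted p = 0.0355). These 4 of 7 members stood beside 46.6% of all tested genes called in that fit. Fitting only the libraries labelled anti-CTLA4 and IgG also gave 4 members higher, with 40.8% of all tested genes called. When replicate 1 was left out and the libraries were scaled to the homeostatic markers, 0 members passed beside 63.7% of all tested genes, and their median was 0.28 against -1.01 over all tested genes.

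Other cell markers moved between these groups as well. The 12 oligodendrocyte precursor-like and tumour cell markers summed to 699 and 981 FPKM in IgG and to 87.7 and 34.7 FPKM in the libraries labelled anti-CTLA4, and 11 of them were lower (median log2 fold change -3.39). The homeostatic microglia markers summed to 4384 and 5473 FPKM in IgG and to 8144 and 11930 FPKM in the labelled anti-CTLA4 libraries, and 4 of 14 were higher (8 of 14 without CD4 depletion replicate 1). Beside these list counts, 38% of all tested genes were called in either direction, and 46.6% without that library. The part of these marker shifts in the members' values was not tested.

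The second comparison set CD4 depletion against the libraries labelled anti-CTLA4 and asked what the loss of CD4 T cells changed under the antibody. Again 0 of 7 members passed, against 29.4% of all tested genes. The log2 fold changes were 1.97 (SE 1.40) for Ms4a4a, 0.30 (SE 0.29) for Ms4a4b and 0.13 (SE 0.74) for Ms4a7. They were -0.33 (SE 1.04) for Ms4a4c, -0.29 (SE 0.52) for Ms4a6b, -0.17 (SE 0.77) for Ms4a6d and -0.14 (SE 0.93) for Ms4a6c, and scaling to the homeostatic markers turned these 4 to values of 0.47 to 0.73. The limma adjusted p ranged from 0.306 to 0.922, with 0 unadjusted p under 0.05. The members' median was -0.14 and that of all tested genes 0.27. Groups did not overlap for 0 members and for 60.5% of tested genes.

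Without CD4 depletion replicate 1, the picture in this comparison was different. Ms4a4c fell by 1.49 (SE 0.45, limma adjusted p = 0.0362), Ms4a6d by 1.05 (SE 0.29, limma adjusted p = 0.0267) and Ms4a6b by 0.90 (SE 0.14, limma adjusted p = 0.00514). These 3 of 7 stood beside 40.6% of all tested genes. Ms4a6c stood at -1.15 (SE 0.48) and did not pass (limma adjusted p = 0.0922). For these 4 genes both remaining CD4 depletion libraries were below both libraries labelled anti-CTLA4, as the groups did not overlap in either direction for 75.1% of tested genes. Ms4a4a, Ms4a4b and Ms4a7 had log2 fold changes of 0.63, 0.03 and -0.18, with limma adjusted p of 0.624 to 0.911. The members' median was -0.90 against 0.30 over all tested genes. With the scaling to the homeostatic markers as well, 1 member passed beside 45.7% of all tested genes: Ms4a4c, at -0.98 (limma adjusted p = 0.0305).

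The third comparison set CD4 depletion against IgG. Limma called 0 members and 0% of all tested genes. Ms4a4b was the 1 member with an unadjusted limma p under 0.05, and its limma adjusted p was 0.71. It reached 1 FPKM only in libraries outside IgG and was tested only through them. Its place above IgG is therefore a description and supports no rise. The log2 fold changes were above 0 for all 7 members, from 0.76 (SE 0.29) for Ms4a4b to 2.10 (SE 1.40) for Ms4a4a. Ms4a6c stood at 1.39 (SE 0.93), Ms4a7 at 1.15 (SE 0.74), Ms4a4c at 1.13 (SE 1.04), Ms4a6d at 1.01 (SE 0.77) and Ms4a6b at 0.84 (SE 0.52). The members' median was 1.13, against -0.04 over all tested genes. Only Ms4a4b and Ms4a6b had CD4 depletion libraries that were all above both IgG libraries, which in either direction held for 27.2% of tested genes.

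The members differed in how far this rested on CD4 depletion replicate 1. Without it the members' median was 0.38, against 0.00 over all tested genes, and the limma adjusted p ranged from 0.935 to 0.998. Ms4a4c then stood at -0.03 (SE 0.45), Ms4a6d at 0.13 (SE 0.29) and Ms4a6c at 0.38 (SE 0.48), while Ms4a7 stood at 0.85 (SE 0.77) and Ms4a4a at 0.77 (SE 0.98). In that fit 0 members were called. Ms4a4b and Ms4a6b were still above IgG in both remaining libraries, with log2 fold changes of 0.50 and 0.23, beside 38.2% of tested genes whose groups did not overlap. The limit given above for Ms4a4b holds here too. The comparisons share their control libraries and are therefore not independent of each other.

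**Figure D2:**
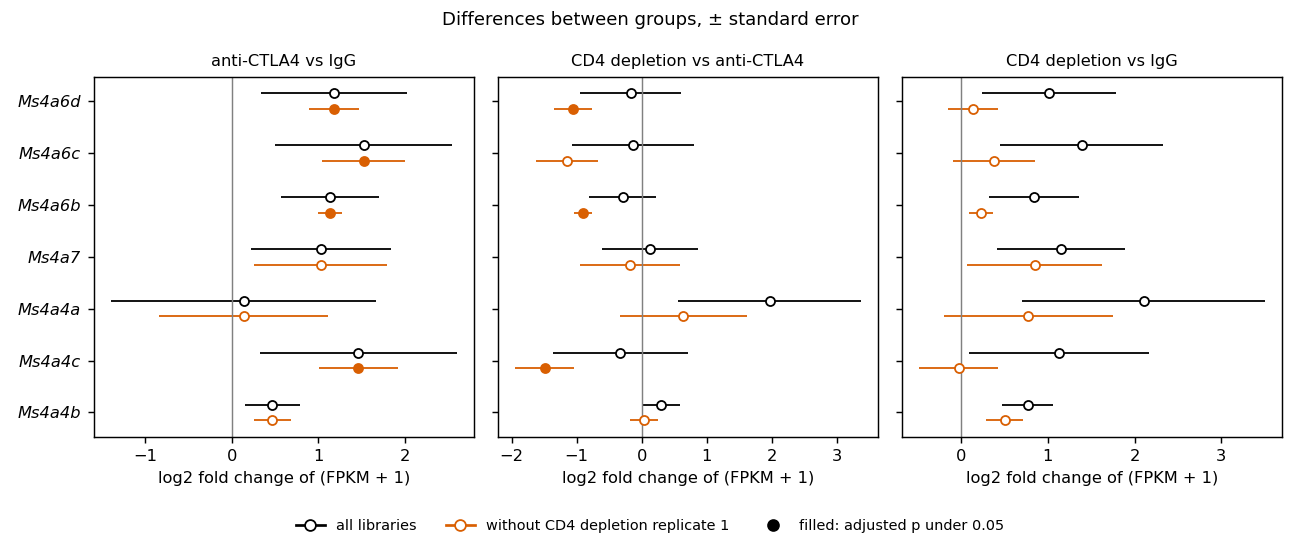
Log2 fold change of (FPKM + 1) ± standard error for each MS4A gene in the 3 comparisons, in black with all 7 libraries and in orange without CD4 depletion replicate 1; filled points have a limma adjusted p under 0.05. No black point is filled, and the filled orange points are the 4 genes of the first comparison and the 3 of the second.

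The size of the replicate 1 values differed between members. Relative to the mean of CD4 depletion replicates 2 and 3, replicate 1 was 15.4-fold higher for Ms4a4a, 14.4-fold for Ms4a4c, 8.42-fold for Ms4a6c and 6.37-fold for Ms4a6d. It was 3.70-fold higher for Ms4a6b, 2.42-fold for Ms4a4b and 1.57-fold for Ms4a7. The same library had the highest sums of the monocyte, border-associated macrophage and neutrophil lists.

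The 14 monocyte and monocyte-derived macrophage markers summed to 3791 FPKM in CD4 depletion replicate 1 and to 172 to 1125 FPKM elsewhere. Ccr2, the chemokine receptor of inflammatory monocytes, was at 43.1 FPKM there and at most 2.24 FPKM elsewhere, and Chil3, a chitinase-like protein of monocytes and activated macrophages, at 487 against at most 12.2 FPKM. The 12 border-associated macrophage markers summed to 197 FPKM in that library against 14.5 to 62.5 FPKM, and the 9 neutrophil markers to 529 against 35.8 to 178 FPKM. The homeostatic microglia list was at its lowest there, at 3791 FPKM against 4384 to 11930 FPKM. In the other 6 libraries, most of the monocyte sum was Lyz2 where that sum was highest. In CD4 depletion replicate 3, where Ms4a7 was highest, the 14 markers summed to 833 FPKM, of which Lyz2 was 735 FPKM. Without Lyz2 the other 13 markers summed to 98.2 FPKM there. That sum was 2100 FPKM in CD4 depletion replicate 1 and 74.4 to 148 FPKM in all other libraries. Lyz2 was also the gene most like Ms4a7, so the sum without it leaves out that gene. The part of these cells in the members' values was not tested.

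**Figure D3:**
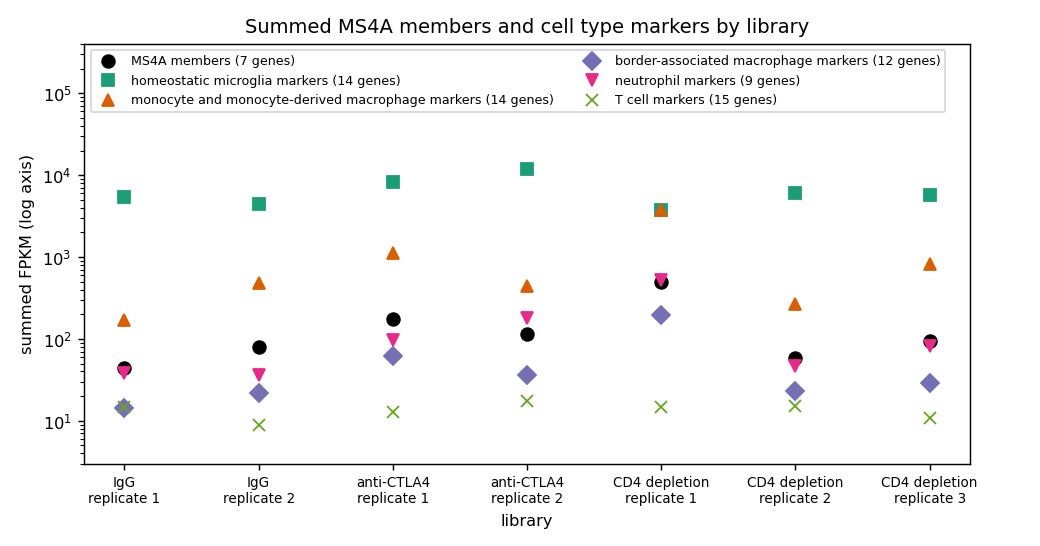
Summed FPKM (log axis) of the 7 MS4A genes and of 5 lists of cell type markers in each library. In CD4 depletion replicate 1 the MS4A sum (493 FPKM) and the monocyte sum (3791 FPKM) are both highest, while the T cell sum (14.7 FPKM) is within its range elsewhere.

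Pairs of members moved together to different degrees. Pearson's r of log2(FPKM + 1) is given as a description over libraries that share groups and replicate 1, with no test. Over the 7 libraries, r ranged from 0.511 to 0.991 among the 21 pairs, with a median of 0.807. Without CD4 depletion replicate 1 the range was -0.101 to 0.977, with a median of 0.551. Ms4a4c, Ms4a6c and Ms4a6d formed the tightest trio, with r of 0.988 to 0.991 over 7 libraries and 0.968 to 0.977 over 6. Ms4a4c and Ms4a4b, the pair with shared upstream stretches, had 0.782 over 7 and 0.363 over 6 libraries, and Ms4a6b and Ms4a6c had 0.902 and 0.747. Ms4a4a went with Ms4a7 over the 6 libraries (0.865) and not with Ms4a6b (-0.101).

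**Figure D4:**
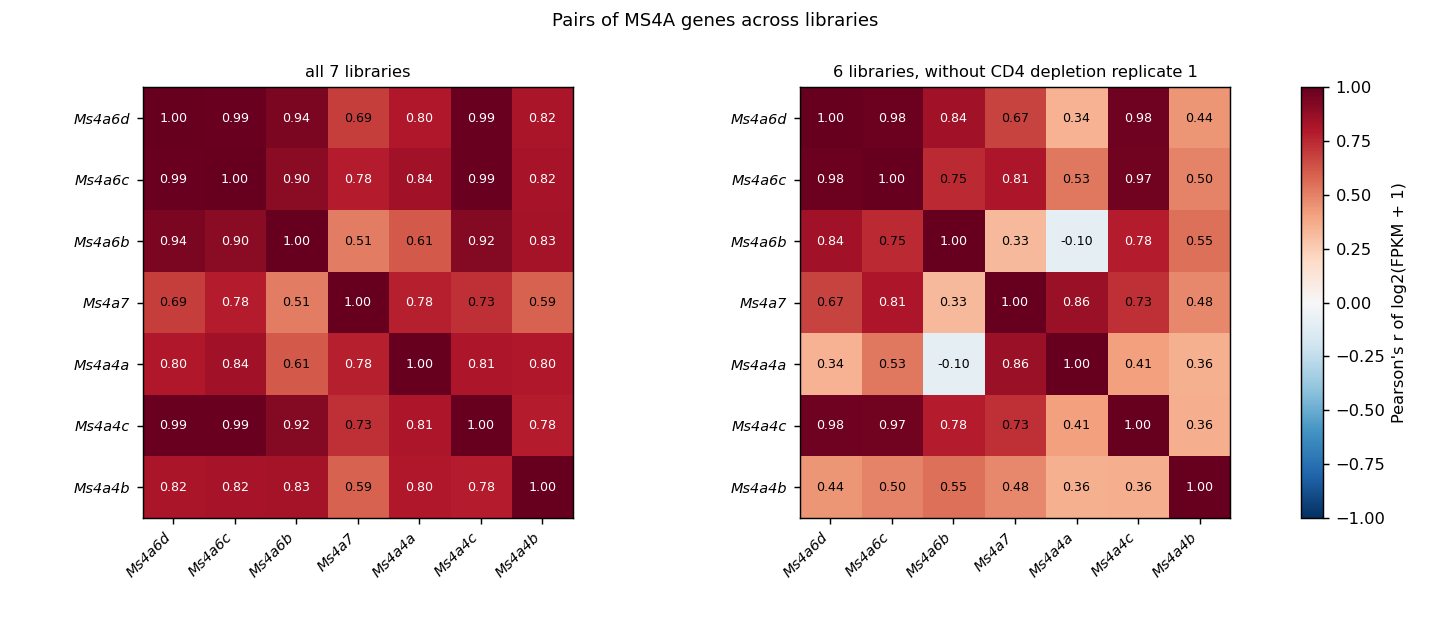
Pearson's r of log2(FPKM + 1) for each pair of MS4A genes over all 7 libraries (left) and over 6 libraries without CD4 depletion replicate 1 (right), from blue for negative to red for positive values. The block of Ms4a4c, Ms4a6c and Ms4a6d stays at 0.968 or more in both panels, and the pair of Ms4a4a with Ms4a6b goes from 0.615 to -0.101.

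Genes with the most similar profiles were sought among 7596 genes with a mean of at least 5 FPKM. Cebpb, a transcription factor of myeloid cells, was among the 3 most alike for Ms4a4c (r = 0.985), Ms4a6c (r = 0.995) and Ms4a6d (r = 0.989). It stood at 34.2 and 58.1 FPKM in IgG, at 171 and 95.3 FPKM in the libraries labelled anti-CTLA4, and at 335, 46.4 and 73.4 FPKM in CD4 depletion. Its library order was that of Ms4a6d except for CD4 depletion replicate 3, which lay above the higher IgG library. Pirb, an inhibitory receptor of myeloid cells, was also among the 3 for these genes, with r of 0.985 to 0.992, and Isg20, an exonuclease induced by interferon, for Ms4a4c (r = 0.984) and Ms4a6d (r = 0.987). Fxyd5, a regulator of the sodium pump, was the most alike to Ms4a6c (r = 0.995).

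Ms4a6b was nearest to Ifitm1, an interferon-induced membrane protein (r = 0.992), Esyt1 (r = 0.991) and Alox5ap, which serves leukotriene synthesis (r = 0.986). Without CD4 depletion replicate 1 these were 0.979, 0.990 and 0.999. Ms4a7 was nearest to Lyz2, the lysozyme of myeloid cells (r = 0.960, and 0.978 without replicate 1), Ccdc86 (r = 0.956) and Apoe, the lipid carrier (r = 0.950). Lyz2 is also on the monocyte list, and it stood at 97.2 and 383 FPKM in IgG, at 977 and 358 FPKM in the libraries labelled anti-CTLA4, and at 1692, 165 and 735 FPKM in CD4 depletion. Ms4a4a was nearest to Ccdc115 (r = 0.981), Jdp2 (r = 0.973) and Cux1 (r = 0.970), and Ms4a4b to Loxl3 (r = 0.962), Clk3 (r = 0.955) and Nid2 (r = 0.951). All these values are the highest of 7596 and rest on 7 libraries.

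The other Ms4a genes of the cluster were largely silent in these cells. Of 17 Ms4a genes with a row between 10962295 and 11640851 on chromosome 19, 8 were tested, and 5 were listed at 0 in all 7 libraries (Ms4a3, Ms4a5, Ms4a10, Ms4a13 and Ms4a18). Ms4a1, which encodes CD20, was at most 1.04 FPKM, and Ms4a2, the IgE receptor beta chain, at most 0.132 FPKM. AW112010, a gene in this interval that is not named Ms4a, was at 15.7 to 85.8 FPKM and was tested as well. It stood at 1.65 (SE 0.34, limma adjusted p = 0.0129) in the first comparison and at -1.74 (SE 0.31, limma adjusted p = 0.014) in the second. The shares of all tested genes called there were 38% and 29.4%. Ms4a4d was the tested Ms4a gene of the cluster outside the members. It stood at 0.057 and 0.270 FPKM in IgG, at 3.87 and 3.46 FPKM in the libraries labelled anti-CTLA4, and at 0.115, 0.384 and 0.161 FPKM in CD4 depletion. Ms4a4d was thus high in both libraries labelled anti-CTLA4 and near the floor in all others, replicate 1 of CD4 depletion included. Ms4a4d entered the test only through the libraries labelled anti-CTLA4, so its difference from them is given as these values alone. Ms4a8a, known from alternatively activated macrophages, was at 12.2 FPKM in CD4 depletion replicate 1 and at most 0.1 FPKM elsewhere, and so was not tested.

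Tmem176a and Tmem176b are MS4A-like membrane proteins encoded on chromosome 6. Tmem176a stood at 299 and 223 FPKM in IgG, at 118 and 86.5 FPKM in the libraries labelled anti-CTLA4, and at 170, 234 and 343 FPKM in CD4 depletion. It fell by 1.34 (SE 0.35, limma adjusted p = 0.0235) in the first comparison and rose by 1.23 (SE 0.32, limma adjusted p = 0.0289) in the second, and with median-of-ratios scaling these were -0.97 and 0.92 and did not pass (limma adjusted p = 0.0552 and 0.0592). Tmem176b stood at -0.82 (SE 0.33, limma adjusted p = 0.0856) and 0.66 (SE 0.30, limma adjusted p = 0.129). With median-of-ratios scaling Tmem176b stood at -0.45 (limma adjusted p = 0.282) and 0.34 (limma adjusted p = 0.374). With quantile normalization Tmem176a stood at -1.39 (limma adjusted p = 0.0266) in the first comparison. Scaling to the homeostatic markers gave Ms4a4d and these 2 genes medians of -1.72 and 1.56 in the first and second comparisons. Over all tested genes the medians were then -0.99 and 0.94. Without CD4 depletion replicate 1 Tmem176b passed, at -0.82 (limma adjusted p = 0.0355) and 0.90 (limma adjusted p = 0.0291), beside 46.6% and 40.6% of all tested genes.

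Receptors and signalling proteins linked to MS4A proteins formed a list of 12 genes, all tested. Of these, 7 rose and 0 fell between IgG and the libraries labelled anti-CTLA4, and their median log2 difference was 1.18, beside 38% of all tested genes called in either direction. Trem2, the lipid receptor of microglia whose soluble form has been tied to the MS4A locus, stood at 209 and 217 FPKM in IgG, at 552 and 572 FPKM in the libraries labelled anti-CTLA4, and at 189, 275 and 278 FPKM in CD4 depletion. Its groups were tight, and replicate 1 of CD4 depletion did not stand above the others. It rose by 1.40 (SE 0.24, limma adjusted p = 0.0105) and then fell by 1.20 (SE 0.22, limma adjusted p = 0.0146) with CD4 depletion. Its adaptor Tyrobp, the Fc receptor gamma chain Fcer1g, the adaptor Card9, the sialic acid receptor Cd33 and the transcription factors Spi1 and Irf8 were the other 6 that rose. With CD4 depletion, 4 of the 12 were lower (Trem2, Cd33, Spi1 and Irf8) and 0 higher, with a median of -0.83 and beside 29.4% of all tested genes, and 0 of 12 were called against IgG. With CD4 depletion replicate 1 left out the counts were 9 higher and 7 lower, beside 46.6% and 40.6% of all tested genes. With all libraries scaled to the homeostatic markers they were 0 and 0, beside 48.9% and 52.6%, with Trem2 at 0.49 and -0.30. Clec7a, which encodes Dectin-1, stood at 1.52 (SE 0.84) in the first comparison and did not pass (limma adjusted p = 0.184).

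A list of 25 type I interferon target genes had 12 members that rose in the first comparison and 14 that fell in the second, with medians of 1.20 and -1.03. The shares of all tested genes called in those fits were 38% and 29.4%. Leaving out CD4 depletion replicate 1 gave 19 and 19, beside 46.6% and 40.6%, and scaling to the homeostatic markers 0 and 0, beside 48.9% and 52.6%. Their median for CD4 depletion against IgG was 0.05, with 0 called, whereas the members' median in that comparison was 1.13 with all libraries and 0.38 without replicate 1. Whether the family and this list respond together was not tested.

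**Figure D5:**
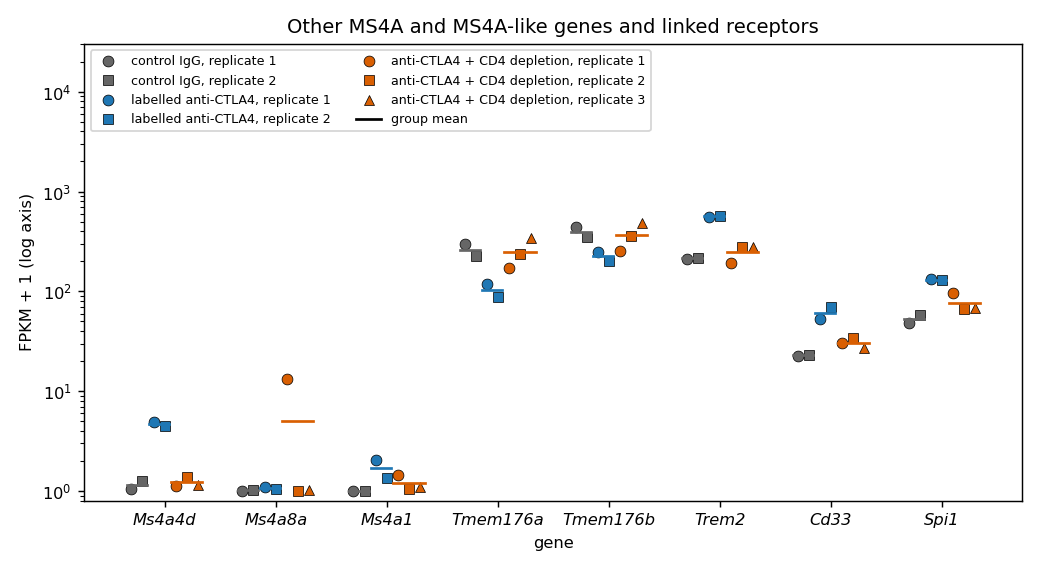
FPKM + 1 (log axis) of other MS4A genes, the MS4A-like Tmem176a and Tmem176b, and 3 linked genes in each library, with short lines at the group means. Ms4a4d is high in both libraries labelled anti-CTLA4 only, and Ms4a8a in CD4 depletion replicate 1 only. Trem2, Cd33 and Spi1 are highest in the libraries labelled anti-CTLA4 but present in every library, with Trem2 at 189 FPKM or more.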

How the data were processed

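RNA sequencing of sorted microglia gave 7 libraries. Per the file headers, the authors' deposited FPKM values came from HOMER's counting over exons on both strands, with 1 entry per gene, so antisense or overlapping partners cannot be told apart. STAR, HOMER, DESeq2 and build mm10 are named in the submitters' processing notes, and versions are not given in the sources used here. Transcript lengths came from the same deposited table.

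On the scale log2(FPKM + 1), on which fold changes of low genes are understated, limma 3.58.1 (R 4.3.3) was fitted to every gene that reached 1 FPKM in 2 or more libraries. All 3 groups shared 1 spread moderated with a trend, tests were two-sided, and p-values were Benjamini-Hochberg adjusted over 13028 genes, with a threshold of 0.05. With groups this small, exact permutation tests of single genes could not reach it. The script was tested on simulated data. Over low values, 100% of 188 to 237 per library lay within 0.1 of a whole read, which gave the implied depth; no count test was run, since the FPKM steps depend on transcript length.

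The members and all lists were chosen with earlier results of these data known. Named genes are the members, genes of the context and marker lists that a result turns on, and for each member the 3 genes with the highest Pearson's r among genes with a mean of at least 5 FPKM. Predicted genes, clone names and microRNAs were left out. Promoter windows are RefSeq's for GRCm38.p6. Shared words were counted in GENCODE transcripts, matched by accession or, for Ms4a6c, by closest length. The Ms4a4b transcript has 4750 nucleotides there and 1249 in the deposited table. No annotated exon of another gene, on either strand, overlapped the exons of these member transcripts. Alternatives were other pseudocounts, filters, scalings, spread models and libraries, including each replicate left out. Scalings without CD4 depletion replicate 1 and crossed replicate numbers were chosen after seeing the data.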

Additional observations from a re-analysis of the deposited data

How the results depend on the processing

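With all libraries, 0 members were called in each comparison, beside 38%, 29.4% and 0% of all tested genes. Of the CD4 depletion libraries left out in turn, replicate 1 gave the highest numbers. Without it, 4 members were called for labelled anti-CTLA4 against IgG, beside 46.6% of all tested genes. For CD4 depletion against labelled anti-CTLA4 there were 3, beside 40.6%. For CD4 depletion against IgG there were 0 with any of these libraries left out. Leaving out an IgG or labelled anti-CTLA4 library leaves 1 in its group, so no count is given there. Fitting only the groups compared called 4 members in the first comparison, beside 40.8% of all tested genes. Without CD4 depletion replicate 1, median-of-ratios scaling called 4 and 3 (beside 39.5% and 33.7% of all tested genes), quantile normalization 5 and 3 (39.6% and 33.7%), and homeostatic scaling 0 and 1 (63.7% and 45.7%) in the first and second comparisons. The cause was not tested.

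The sign of some log2 fold changes turned, including those of Ms4a4c, Ms4a6b and Ms4a6d in the second comparison, which passed only without CD4 depletion replicate 1. In the first comparison, Ms4a4a ranged from -1.32 to 1.60 with a library left out, and was -0.082 with a pseudocount of 5, -0.44 with homeostatic scaling and -0.44 with that scaling and replicate 1 left out. In the second, the values with a library left out ranged from -1.49 to 0.49 for Ms4a4c, -0.90 to 0.017 for Ms4a6b, -1.15 to 0.56 for Ms4a6c, -1.05 to 0.35 for Ms4a6d and -0.49 to 0.78 for Ms4a7. Homeostatic scaling gave 0.47 for Ms4a4c, 0.58 for Ms4a6b, 0.73 for Ms4a6c and 0.71 for Ms4a6d. Ms4a7 was -0.15 with median-of-ratios scaling and -0.15 with quantile normalization, which also put Ms4a4b at -0.033. Without replicate 1, Ms4a4b and Ms4a7 were -0.16 and -0.51 with median-of-ratios scaling and -0.36 and -0.50 with quantile normalization. In the third, Ms4a4c ranged from -0.029 to 1.96 with a library left out. Without replicate 1 it was -0.027, -0.035 and -0.25 with median-of-ratios, quantile and homeostatic scaling, the last also giving -0.039 for Ms4a6b and -0.15 for Ms4a6d.

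Deviations from the group means of same-numbered libraries correlated at -0.205 to 0.123. In a group of 2 libraries the deviations mirror each other, so these values cannot decide whether the replicate numbers pair the libraries. With a replicate block, in which CD4 depletion replicate 3 is alone, 0 members were called in each comparison, and in the second the values were 0.001 for Ms4a4c, 0.003 for Ms4a6b, 0.18 for Ms4a6c, 0.18 for Ms4a6d and -0.22 for Ms4a7. Crossing the anti-CTLA4 numbers in the block also called 0. The Y-linked Eif2s3y was at 0.335 to 1.06 FPKM in IgG and labelled anti-CTLA4 and at 4.34 to 6.86 FPKM in CD4 depletion. The Y-linked Uty was at 1.60 to 2.09 FPKM in CD4 depletion and at most 0.494 FPKM elsewhere. Ddx3y, also Y-linked, was at 2.515 to 4.88 FPKM in CD4 depletion and at most 1.21 FPKM elsewhere. The Y-linked Kdm5d overlapped (0.663 to 1.88 FPKM in CD4 depletion and up to 0.746 FPKM in IgG). Xist, expressed in females, was at 2.42 to 3.42 FPKM in CD4 depletion and 2.16 and 2.48 FPKM in IgG. In the libraries labelled anti-CTLA4, Xist was at 3.85 and 6.08 FPKM. Whether the sex of the animals differed was not tested. With 2 or 3 libraries a group, standard errors of 0.3 to 1.5 on the log2 scale limit what could be called.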
